A study of Mus musculus with 32 samples.

Results

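Ccnd1, Ccnd2, Ccnd3, Ccne1, Ccne2, Cdk4, Cdk6, Cdkn1b, Cdkn2c and Rb1 encode cyclins, kinases and inhibitors of the G1 phase of the cell cycle, the interval before DNA replication. These 10 genes were taken by name from the 31053 genes counted in E14 mouse embryonic stem cells that were leaving the naive pluripotent state. Poly(A) RNA had been read from the 3' end of transcripts. The cells, a single established line derived from a blastocyst, were kept in N2B27 medium with either 2i or 2iL. The 2i mix combines CHIR99021 at 3 uM, which inhibits the kinase GSK3, with PD0325901 at 1 uM, which inhibits the kinase MEK. The cytokine LIF is added to it in 2iL. At 0 h the mix was still present. For every later time it had been replaced by N2B27 without inhibitors or LIF. Both courses were collected at 0, 24, 36, 48, 60, 72 and 84 h, and further times were 12 h in 2i and 96 h in 2iL, with 2 libraries a time and 32 in all. The second library of 2iL 36 h held only 7298 counts and was left out, so 31 libraries were used. All later times of a course were compared with the same 2 libraries of 0 h, and time in culture goes with withdrawal.

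D-type cyclins bind CDK4 and CDK6 and respond to growth signals such as the MEK-ERK pathway, whereas E-type cyclins bind CDK2 and drive entry into S phase. Both kinds of kinase phosphorylate the retinoblastoma protein RB1, which otherwise holds back E2F transcription factors, while p27 (Cdkn1b) and p18 (Cdkn2c) inhibit the kinases. Mouse embryonic stem cells are known for a short G1 phase, which lengthens as they differentiate, and the levels are read here for how the D-type cyclins stood to each other at each time.

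The 31 libraries held 1122648 to 3438514 counts (median 1980949). A level is given in CPM, counts per 1000000 counts after TMM normalisation. On library totals, before TMM, 3 counts, the limit that a count of 0 allows, correspond to 0.872 to 2.67 CPM. A TMM factor under 1, such as 0.709 in replicate 2 of 2i 12 h, raises this limit, and a factor above 1 lowers it. Intervals and limits cover counting error only. Of the 10 genes, 9 passed the filter on low counts and were tested among 12556 genes with edgeR's quasi-likelihood test. A gene is said to have risen or fallen where its Benjamini-Hochberg adjusted p over all tested genes was under 0.05. Values after ± are standard errors of log2 fold changes. The labels do not say whether replicates were separate cultures, and the p-values therefore speak only of the spread among these samples, which may be technical. Replicate libraries correlated at 0.979 or more over genes (log2 CPM) in 10 groups, at 0.959 in 2i 12 h and 0.964 in 2iL 24 h, and at 0.929 to 0.931 in 2iL 48, 84 and 96 h. Replicate 1 of 2iL 48 h and 96 h and replicate 2 of 2iL 84 h and 2i 12 h had stood apart in earlier results of these data and were left out in an alternative. The naive markers checked the cell state: all 11 were tested, their summed level was 2954 to 3010 CPM at 2iL 0 h and 1430 to 1555 CPM at 2i 0 h, and all 11 fell by 96 h of the 2iL course and 84 h of the 2i course, where 20.1% and 16.6% of all tested genes fell.

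The 10 genes lie on 7 chromosomes of build mm10. Cyclin D1 (Ccnd1, ENSMUSG00000070348) spans 144929931 to 144939925 of chromosome 7, cyclin D2 (Ccnd2, ENSMUSG00000000184) 127125162 to 127152193 of chromosome 6, and cyclin D3 (Ccnd3, ENSMUSG00000034165) 47505051 to 47599691 of chromosome 17. Cyclin E1 (Ccne1, ENSMUSG00000002068) is also on chromosome 7, at 38097984 to 38107534, and cyclin E2 (Ccne2) on chromosome 4, at 11191351 to 11204779. Cdk4 lies on chromosome 10 (127063534 to 127067920), Cdk6 on chromosome 5 (3341485 to 3531008), Cdkn1b on chromosome 6 (134920401 to 134925513), Cdkn2c on chromosome 4 (109660876 to 109667189) and Rb1 on chromosome 14 (73183673 to 73325822). Reads were counted per gene, near the 3' end of the transcript, and do not separate isoforms.

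Promoter windows were matched in RefSeq (GRCm38.p6) for 6 of the 10 genes, and Ccnd1, Ccnd2, Ccne2 and Rb1 had no entry. The 4 windows printed are those of genes with unlike courses below: Ccnd3 (chr17:47593217-47593516, plus strand), Ccne1 (chr7:38107441-38107740, minus strand), Cdk6 (chr5:3343643-3343942, plus strand) and Cdk4 (chr10:127063285-127063584, plus strand). Each runs 5′ to 3′ on the gene's strand, from 250 bases before the transcript start to 50 after. Capitals mark matches, on either strand, to the E-box CACGTG, the SP motif GGGCGG, the TCF motif CTTTGAT or CTTTGAA, the E2F motif TTTCGCGC or TTTGGCGC and the STAT motif TTCNNNGAA; motifs may overlap.
Ccnd3: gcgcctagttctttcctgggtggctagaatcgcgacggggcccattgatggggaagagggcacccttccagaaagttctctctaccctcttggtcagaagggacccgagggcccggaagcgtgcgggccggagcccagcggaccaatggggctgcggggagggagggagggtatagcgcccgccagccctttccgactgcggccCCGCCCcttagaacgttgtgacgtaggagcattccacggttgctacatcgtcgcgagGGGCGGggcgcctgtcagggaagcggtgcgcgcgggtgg
Ccne1: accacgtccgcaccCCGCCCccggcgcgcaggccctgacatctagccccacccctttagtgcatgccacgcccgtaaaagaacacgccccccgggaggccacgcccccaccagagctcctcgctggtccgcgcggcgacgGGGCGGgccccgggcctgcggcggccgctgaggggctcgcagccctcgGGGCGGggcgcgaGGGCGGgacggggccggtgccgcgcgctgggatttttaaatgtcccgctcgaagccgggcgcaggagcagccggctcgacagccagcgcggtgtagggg
Cdk6: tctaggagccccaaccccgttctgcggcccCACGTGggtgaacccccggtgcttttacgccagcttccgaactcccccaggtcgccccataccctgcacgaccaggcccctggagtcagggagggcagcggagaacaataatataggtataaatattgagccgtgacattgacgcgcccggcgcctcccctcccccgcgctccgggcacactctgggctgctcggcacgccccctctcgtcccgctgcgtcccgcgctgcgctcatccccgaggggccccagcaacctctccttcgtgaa
Cdk4: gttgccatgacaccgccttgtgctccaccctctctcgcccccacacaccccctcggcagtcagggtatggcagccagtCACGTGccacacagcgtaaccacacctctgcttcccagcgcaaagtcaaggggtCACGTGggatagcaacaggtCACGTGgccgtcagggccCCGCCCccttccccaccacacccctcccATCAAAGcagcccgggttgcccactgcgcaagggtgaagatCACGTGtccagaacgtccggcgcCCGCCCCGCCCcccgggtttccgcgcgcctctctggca

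The window of Cdk4 held 4 E-boxes, which 8 of 32851 windows in the table did (0.0244%), with 3 SP matches and 1 TCF match. Cdk6 held 1 E-box, found in 7.15% of windows, and no SP match. Ccne1 held 4 SP matches and the Ccnd3 window 2, and the SP motif stood in 35.7% of all windows. No window of the 6 genes held the E2F motif (0.813% of all windows) or the STAT motif (8.3%), and the TCF motif stood in 8.65% of all windows. These are matches of letters in windows, and binding was not measured.

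Before withdrawal the D-type cyclins differed between the media. Ccnd2 was higher in 2i than in 2iL and Ccnd3 was lower, and these were the only calls among the 9 tested genes, 1 in each direction, where 8.0% of all tested genes were called, 3.75% higher and 4.24% lower. Ccnd2 stood at 9.57 and 7.97 CPM in the 2iL libraries and at 46.5 and 55.5 CPM in the 2i libraries, and the groups did not overlap (log2 difference 2.52 ± 0.24, 5.74-fold, adjusted p = 4.6e-09). Ccnd3 stood at 236 and 219 CPM in 2iL and at 133 and 120 CPM in 2i, again without overlap (-0.85 ± 0.17, adjusted p = 9.7e-04). Ccnd1, at 276 and 282 CPM in 2iL and 361 and 357 CPM in 2i, did not pass in the fit of all groups (0.36 ± 0.19, adjusted p = 0.30). It passed in the fit of those 4 libraries alone (0.35, adjusted p = 0.012) and without the libraries that stood apart (0.35, adjusted p = 0.041). In the fit of those 4 libraries Ccne1 (-0.48, adjusted p = 0.044) and Cdk6 (-0.45, adjusted p = 0.038) also passed, both lower in 2i. In bulk RNA, fewer cells that express a gene and less RNA per cell cannot be told apart.

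**Figure D1:**
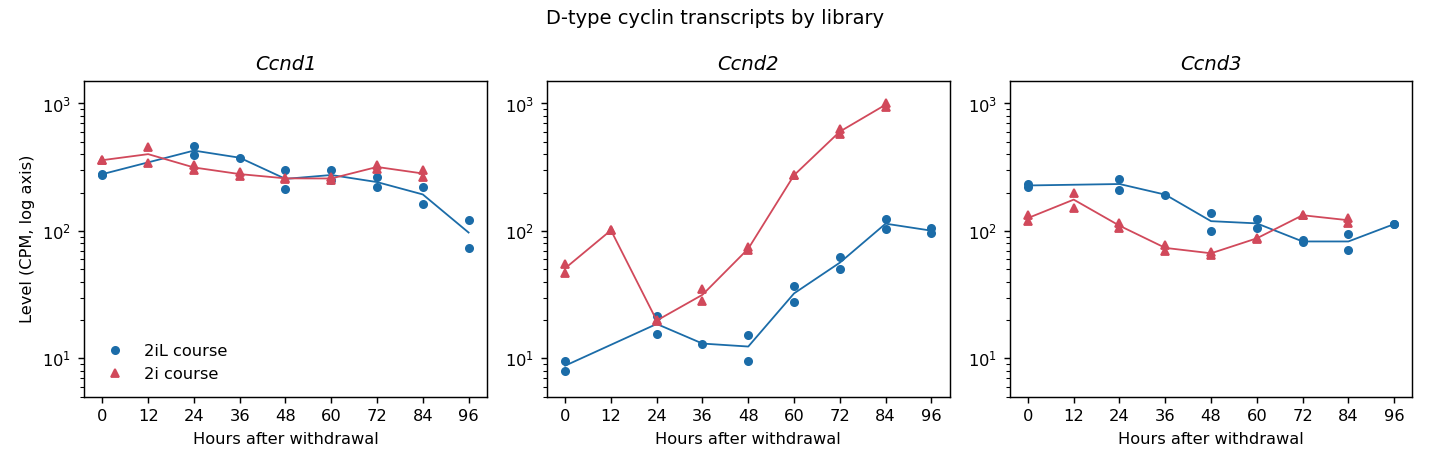
Levels of Ccnd1, Ccnd2 and Ccnd3 (CPM, log axis) against hours after withdrawal; each point is a library, blue circles for the 2iL course and red triangles for the 2i course, and lines join group means. Ccnd2 ended at 945 to 1011 CPM in the 2i course and at 96.5 to 105 CPM in the 2iL course, whereas Ccnd1 stayed between 73.4 and 463 CPM in all 31 libraries.

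Ccnd2 had the widest range of the 9 tested genes. Its group mean at 2i 84 h was 111 times that at 2iL 0 h. In 2i it was above the level of 0 h at 12 h, below it at 24 h and above it again late. From 46.5 and 55.5 CPM at 0 h it stood at 102 and 101 CPM at 12 h (1.00 ± 0.19, 1.99-fold, adjusted p = 5.1e-04) and at 19.6 and 20 CPM at 24 h, below 0 h (-1.35 ± 0.21, adjusted p = 1.3e-05). The libraries of 12 h lay above, and those of 24 h below, every library of 0 h. It then stood at 35.2 and 28 CPM at 36 h, 74.3 and 70.9 CPM at 48 h and 273 and 274 CPM at 60 h. By 72 h it had reached 578 and 626 CPM (3.57 ± 0.18, 11.8-fold, adjusted p = 2.8e-15) and by 84 h 1011 and 945 CPM (4.27 ± 0.19, 19.3-fold, adjusted p = 4.7e-17). From 24 h on, each later group of the 2i course lay wholly above the group before it. The calls at 12, 24, 72 and 84 h held under all alternatives run.

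The difference at 48 h was at the threshold (0.51 ± 0.19, adjusted p = 0.049998) and was lost in 8 of 12 alternatives, with adjusted p between 0.013 and 0.362. It was lost without replicate 1 of 2i 0 h (adjusted p = 0.362), replicate 2 of 2i 0 h (0.0603), replicate 1 of 2i 48 h (0.178) or replicate 2 of 2i 48 h (0.144), and with DESeq2 (0.0624). At 12 h the 10 most abundant genes took 35.5% and 43.5% of the counts, against 22.3% and 24.7% at 0 h. The rise of Ccnd2 at 12 h also passed on library totals, without TMM, and the part of these genes in its level was not tested further.

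Ccnd2 began lower in the 2iL course and rose later. It stood at 9.57 and 7.97 CPM at 0 h, 21.7 and 15.6 CPM at 24 h, 13.1 CPM in the library of 36 h and 15.2 and 9.62 CPM at 48 h. The rise at 24 h passed (1.10 ± 0.29, adjusted p = 0.012) and the difference at 48 h did not (0.51 ± 0.27, adjusted p = 0.16), although both libraries of 48 h, the lower one narrowly, lay above those of 0 h. Levels then stood at 27.8 and 36.9 CPM at 60 h, 62.4 and 50.3 CPM at 72 h (2.68 ± 0.23, 6.4-fold, adjusted p = 1.5e-10), 103 and 125 CPM at 84 h and 105 and 96.5 CPM at 96 h (3.50 ± 0.23, 11.3-fold, adjusted p = 2.0e-13). The libraries of 84 and 96 h overlapped and lay above all earlier times of this course. The call at 24 h was lost without replicate 2 of 2iL 0 h (adjusted p = 0.122) and without replicate 1 of 2iL 24 h (0.272), and in the fit of the groups compared alone (0.0515), with adjusted p from 0.014 to 0.272 over 12 alternatives. At 24 h the 10 most abundant genes took 30.6% and 30.5% of the counts, against 17.1% and 18.9% at 0 h, and their part was not tested. The difference at 48 h passed without replicate 2 of 2iL 48 h (0.80, adjusted p = 0.047).

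The courses differed in how Ccnd2 changed. At 24 h the log2 change in 2iL exceeded that in 2i by 2.45 ± 0.36, since Ccnd2 had risen in the first and fallen in the second (adjusted p = 6.3e-05). That call held under all alternatives run, and so did the joint test over the 6 shared times (adjusted p = 4.6e-08). In absolute level, Ccnd2 was nearly the same in both courses at 24 h, at 15.6 to 21.7 CPM, and the libraries overlapped. The difference in change at 24 h thus rests on the libraries of 0 h, where Ccnd2 was higher in 2i. It is not independent of the call between media at 0 h.

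The early neural markers, like Ccnd2, were higher at the last time of each course than at 0 h. All 8 were tested, and 8 rose by 96 h of the 2iL course and 7 by 84 h of the 2i course, where 19.5% and 16.6% of all tested genes rose. Their summed level went from 167 to 172 CPM at 2iL 0 h to 1345 to 1533 CPM at 2iL 96 h, and from 193 to 208 CPM at 2i 0 h to 2083 to 2193 CPM at 2i 84 h. The share of reads outside genes was also higher late: it was 30.4% and 46.1% at 2i 0 h and 53.6% and 55.4% at 2i 84 h, and 46.7% and 40.8% at 2iL 0 h and 53.8% and 50.2% at 2iL 96 h. The part of either in the level of Ccnd2 was not tested. Primitive endoderm markers were near the limit of counting, with 2 of 7 tested and a summed level of 2.38 to 3.85 CPM at 2i 0 h and 13.3 to 14.5 CPM at 2i 84 h. The 2 tested, Foxa2 (2.50 ± 0.83, adjusted p = 0.021) and Dab2 (2.44 ± 0.79, adjusted p = 0.017), rose at 2i 84 h. At their level at 2i 0 h neither would have passed the filter, which asked for the minimum count in only 1 library. They were thus tested only because they were higher in some other library, and their count is no result about these markers. Of the 7, Gata4, Gata6, Sox7 and Sox17 did not exceed 2.94 CPM in any library. Of 7 mesenchymal markers 5 were tested and 4 rose at 2i 84 h. The summed level there, mostly Vim, was 132 to 169 CPM against 107 to 138 CPM at 0 h, and Col3a1 and Lum did not exceed 1.96 CPM. Over all libraries used, this sum was highest before withdrawal, at 354 CPM in replicate 2 of 2iL 0 h. Markers that were low at 0 h again entered the test only through libraries where they were higher. Whether such cells were present, and their part in the results, was not tested.

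Ccnd1, the D-type cyclin with the largest share of D-type cyclin counts at 0 h, changed less. During the 2i course it stood at 361 and 357 CPM at 0 h, 457 and 344 CPM at 12 h, 326 and 303 CPM at 24 h, 268 and 291 CPM at 36 h, 257 and 260 CPM at 48 h and 264 and 252 CPM at 60 h. It ended at 306 and 329 CPM at 72 h and 266 and 298 CPM at 84 h. No time tested in the 2i course passed (at 84 h -0.35 ± 0.19, adjusted p = 0.16), although the libraries of 84 h lay below those of 0 h. Without the libraries that stood apart, 48 h (-0.46, adjusted p = 0.0025) and 84 h (-0.33, adjusted p = 0.027) passed, and so they did in the fit of the groups compared alone. The joint test of the 2i course called Ccnd1 (adjusted p = 0.040), but 15 of 24 alternatives did not (adjusted p from 9.1e-06 to 0.496), 14 of them without a single library (0.05 to 0.193).

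During the 2iL course Ccnd1 was higher than at 0 h at 24 h and lower at 96 h. It stood at 276 and 282 CPM at 0 h, 391 and 463 CPM at 24 h (0.61 ± 0.19, 1.53-fold, adjusted p = 0.033) and 375 CPM at 36 h. The following libraries had 214 and 298 CPM at 48 h, 300 and 250 CPM at 60 h, 220 and 264 CPM at 72 h and 223 and 164 CPM at 84 h. At 96 h it was at 73.4 and 121 CPM, the lowest of the 31 libraries (-1.50 ± 0.20, 2.83-fold lower, adjusted p = 4.2e-07). The fall at 96 h held under all alternatives run. The rise at 24 h was lost without replicate 1 of 2iL 0 h (adjusted p = 0.163), replicate 2 of 2iL 0 h (0.155), replicate 1 of 2iL 24 h (0.0642) or replicate 2 of 2iL 24 h (0.239), and on library totals (0.265), with adjusted p from 6.1e-04 to 0.265 over 12 alternatives.

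Ccnd3 fell in both courses, and at 2i 84 h its libraries overlapped those of 0 h again. With 2iL withdrawn it stood at 236 and 219 CPM at 0 h, 256 and 211 CPM at 24 h, 193 CPM at 36 h, 99.6 and 139 CPM at 48 h, 105 and 124 CPM at 60 h, 81.2 and 84.2 CPM at 72 h, 94.3 and 71.1 CPM at 84 h and 112 and 114 CPM at 96 h. It was thus lower at 48 h (-0.93 ± 0.17, adjusted p = 8.8e-05), 72 h (-1.46 ± 0.17, 2.75-fold, adjusted p = 7.8e-08) and 96 h (-1.01 ± 0.17, adjusted p = 2.2e-05). Every library from 36 h on lay below both of 0 h.

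With 2i withdrawn Ccnd3 stood at 133 and 120 CPM at 0 h, 152 and 200 CPM at 12 h, 115 and 105 CPM at 24 h, 69.3 and 78 CPM at 36 h and 64.6 and 69 CPM at 48 h, where it was lower than at 0 h (-0.92 ± 0.18, 1.89-fold, adjusted p = 3.2e-04). It then stood at 88.5 and 86.6 CPM at 60 h, 133 and 132 CPM at 72 h and 126 and 116 CPM at 84 h, and the libraries of 84 h overlapped those of 0 h (-0.06 ± 0.18, adjusted p = 0.83). At 12 h the difference did not pass (0.47 ± 0.18, adjusted p = 0.084), and it did without replicate 1 of 2i 12 h (0.67, adjusted p = 0.042). The course of Ccnd3 differed between 2i and 2iL in the joint test over the 6 shared times (adjusted p = 3.0e-07). Bysl, a gene of ribosome assembly on the other strand, shares 361 exonic bases with Ccnd3 and had 5760 counts to its 7590. Bysl did not pass at 2iL 96 h (0.01 ± 0.25) or 2i 84 h (-0.57 ± 0.26). Ccnd1 and Cdk4 also share exonic bases with genes on the other strand, 1100 with LTO1 and 641 with Tspan31. LTO1 had 1058 counts to the 17074 of Ccnd1, and Tspan31 had 613 to the 16362 of Cdk4.

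Set against each other within a library, the D-type cyclins changed their order in the 2i course. The shares add up to a fixed whole, so a rise of Ccnd2 lowers the shares of the others even where their levels hold. The level of Ccnd1 at 2i 84 h did not pass against 0 h. The share of Ccnd2 in the summed counts of Ccnd1, Ccnd2 and Ccnd3 does not depend on library scaling, but 3' counting recovers genes unequally, so it is a share of counts and not of transcripts. Along the 2i course Ccnd2 held 8.6% (Wilson 95% interval 7.22 to 10.2) and 10.4% (8.65 to 12.5) at 0 h, 4.26% and 4.68% at 24 h and 18.8% and 17.7% at 48 h. At 60 h it held 43.7% (41.1 to 46.3) and 44.7% (42.0 to 47.5), and Ccnd1 42.2% (39.6 to 44.7) and 41.1% (38.4 to 43.9). These intervals overlapped in each library. At 72 h Ccnd2 held 56.8% and 57.6% and Ccnd1 30.1% and 30.3%. At 84 h Ccnd2 held 72% (70.1 to 73.8) and 69.5% (67.7 to 71.3), Ccnd1 19% and 21.9% and Ccnd3 9% and 8.56%. The intervals of Ccnd2 at 84 h lay far above those of 0 h in this course.

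Along the 2iL course the 3 genes came near to each other. Ccnd2 held 1.84% (1.23 to 2.74) and 1.57% (0.992 to 2.46) of D-type cyclin counts at 0 h, where Ccnd1 held 53% and 55.4% and Ccnd3 45.2% and 43%. The share of Ccnd2 stayed at or under 4.61% to 48 h and was 17.2% and 12.6% at 72 h. At 96 h Ccnd2 held 36% (31.7 to 40.6) and 29.1% (26.2 to 32.2), Ccnd1 25.3% and 36.5% and Ccnd3 38.7% and 34.4%. The order of Ccnd1 and Ccnd2 differed between the 2 libraries of 96 h. The summed level of the 3 genes went from 521 and 509 CPM at 0 h to 290 and 331 CPM at 96 h of the 2iL course. For 2i it was 540 and 532 CPM at 0 h, 711 and 645 CPM at 12 h, 396 and 400 CPM at 48 h and 1404 and 1360 CPM at 84 h.

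**Figure D2:**
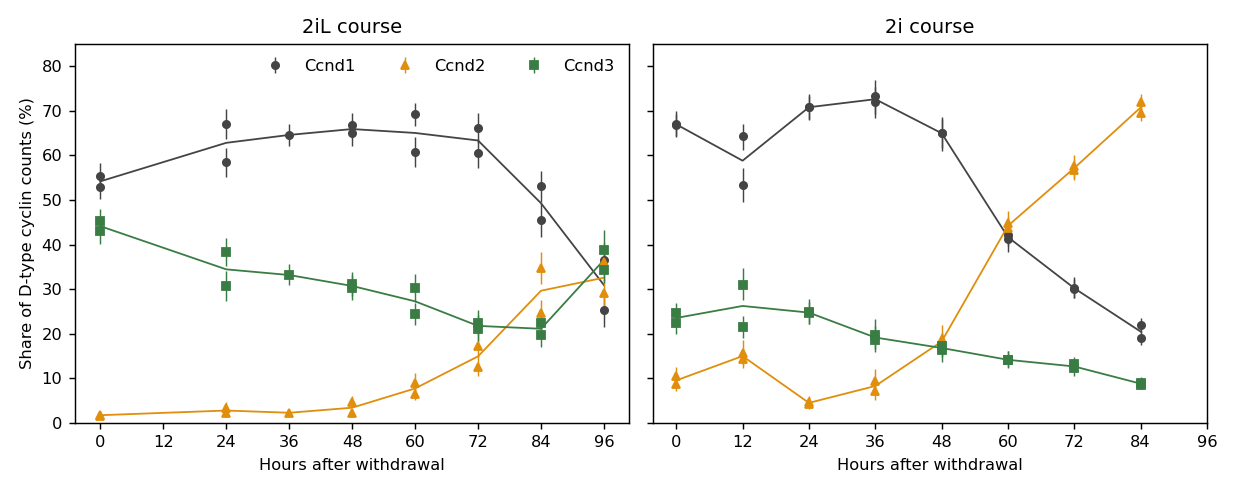
Share of each D-type cyclin in the summed counts of Ccnd1, Ccnd2 and Ccnd3 (%) against hours after withdrawal, 2iL course on the left and 2i course on the right; points are libraries with Wilson 95% intervals and lines join group means. The share of Ccnd2 went from 8.6 to 10.4% to 69.5 to 72% in 2i and from 1.57 to 1.84% to 29.1 to 36% in 2iL.

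The genes whose levels ran most like each D-type cyclin were found by Pearson's r of log2 CPM over the 16 group means, among 4131 genes with a mean log2 CPM of at least 5. The points share libraries within courses, and the r values are descriptions. Ccnd2 ran most like Mprip (r = 0.924), Sh3glb1 (0.916), Ccni (0.907), Adgrl2 (0.902) and Ttc3 (0.897), and most against Tuba4a (-0.951), Nosip (-0.933) and Gcnt2 (-0.931). Ccnd3 ran most like Isoc2a (0.958), Mfge8 (0.904), Scpep1 (0.893), Rev3l (0.889) and Agrn (0.88), and most against Ccdc85c (-0.937), Hnrnpll (-0.923) and Bex4 (-0.916). Ccnd1 had looser neighbours, among them Rcor2 (0.866), Ubl3 (0.866), Ints7 (0.854) and Rnf2 (0.848), and the most opposed Fem1b (-0.839), Strbp (-0.836) and Pigt (-0.833). None of these lists held another of the 10 genes. Ccne2, Cdkn1b and Rb1 lay under the limit of mean log2 CPM and Cdkn2c was not tested, so these genes could not appear. Among pairs of the 10, r over the group means reached -0.855 for Ccne1 and Cdkn1b, 0.72 for Ccnd2 and Rb1, -0.766 for Cdk6 and Rb1 and -0.65 for Ccnd2 and Ccne1.

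Cyclin E1 rose in both courses, and at their end it was lower than at 0 h in 2iL and no longer differed past the threshold in 2i. Ccne1 in the 2iL course stood at 52 and 59.8 CPM at 0 h, 106 and 79.1 CPM at 24 h, 109 CPM at 36 h, 99.2 and 139 CPM at 48 h, 142 and 115 CPM at 60 h, 91.8 and 100.1 CPM at 72 h, 52.6 and 73.8 CPM at 84 h and 29.9 and 39.7 CPM at 96 h. It was higher than at 0 h at 24 h (0.73 ± 0.23, adjusted p = 0.033), 48 h (1.09 ± 0.22, 2.12-fold, adjusted p = 2.7e-04) and 72 h (0.78 ± 0.22, adjusted p = 0.0071) and lower at 96 h (-0.66 ± 0.24, adjusted p = 0.027). The libraries of 96 h lay below both of 0 h, and those of 24 to 72 h above. The call at 48 h held under all alternatives run. That at 24 h was lost without replicate 1 of 2iL 0 h (adjusted p = 0.214), replicate 2 of 2iL 0 h (0.0963) or replicate 1 of 2iL 24 h (0.341) and on library totals (0.18), that at 72 h without replicate 1 of 2iL 0 h (0.0876) or replicate 2 of 2iL 72 h (0.0522), and that at 96 h in 6 of 12 alternatives, among them without replicate 2 of 2iL 0 h (0.161) or replicate 1 of 2iL 96 h (0.209) and with DESeq2 (0.0731). Adjusted p ran over 12 alternatives from 0.0027 to 0.341 at 24 h, from 8.4e-05 to 0.0876 at 72 h and from 0.024 to 0.209 at 96 h.

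The times of the peaks were not tested, and in both courses the highest group overlapped a neighbouring one. Ccne1 in the 2i course had its highest group mean at 24 h, against 60 h in the 2iL course. It stood at 45.3 and 34.6 CPM at 0 h, 83 and 51 CPM at 12 h, 112 and 93.8 CPM at 24 h, 85.4 and 101 CPM at 36 h, 80.1 and 78.8 CPM at 48 h, 59 and 69 CPM at 60 h, 46.1 and 50.6 CPM at 72 h and 31.6 and 35.4 CPM at 84 h. It had risen at 12 h (0.76 ± 0.24, adjusted p = 0.040), 24 h (1.35 ± 0.23, 2.55-fold, adjusted p = 4.6e-05) and 48 h (0.98 ± 0.23, adjusted p = 0.0021) and did not pass at 72 h (0.26 ± 0.25) or 84 h (-0.26 ± 0.25). The calls at 24 and 48 h held under all alternatives run. The call at 12 h was lost without replicate 1 of 2i 0 h (adjusted p = 0.0654), replicate 2 of 2i 0 h (0.254) or replicate 1 of 2i 12 h (0.534) and on library totals (0.245), with adjusted p from 3.4e-04 to 0.534. Jointly over the shared times, the courses differed for Ccne1 (adjusted p = 0.040), a call that was lost in 20 of 35 alternatives (1.7e-04 to 0.161), 16 of them without a single library.

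Cyclin E2 was the lowest of the tested cyclins in counts. Ccne2 lay between 9.09 and 26.8 CPM in the 31 libraries (median 18.6 CPM), with the lowest levels, 9.09 and 10.9 CPM, at 2iL 96 h. It passed at no time tested: the difference was -0.59 ± 0.30 at 2iL 96 h (adjusted p = 0.13) and 0.63 ± 0.28 at 2i 84 h (adjusted p = 0.084). The latter passed with RLE size factors (adjusted p = 0.047), on library totals (0.021) and without the libraries that stood apart (0.0497). Without replicate 2 of 2iL 0 h Ccne2 was higher at 2iL 48 h (0.94, adjusted p = 0.047). The joint test called it in the 2iL course (adjusted p = 0.022) and not in the 2i course (adjusted p = 0.34), and jointly the courses did not differ past the threshold (adjusted p = 0.7). The 2iL call was lost in 6 of 23 alternatives (adjusted p from 0.014 to 0.146): without replicate 1 (0.11) or replicate 2 (0.0774) of 2iL 96 h, without the libraries that stood apart (0.133), in the fit of the groups compared alone (0.0822), on library totals (0.0504) and with DESeq2 (0.146). On library totals the 2i course was called (0.024). Ints8, on the other strand, shares 609 exonic bases with Ccne2 and had 1274 counts to its 1147.

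**Figure D3:**
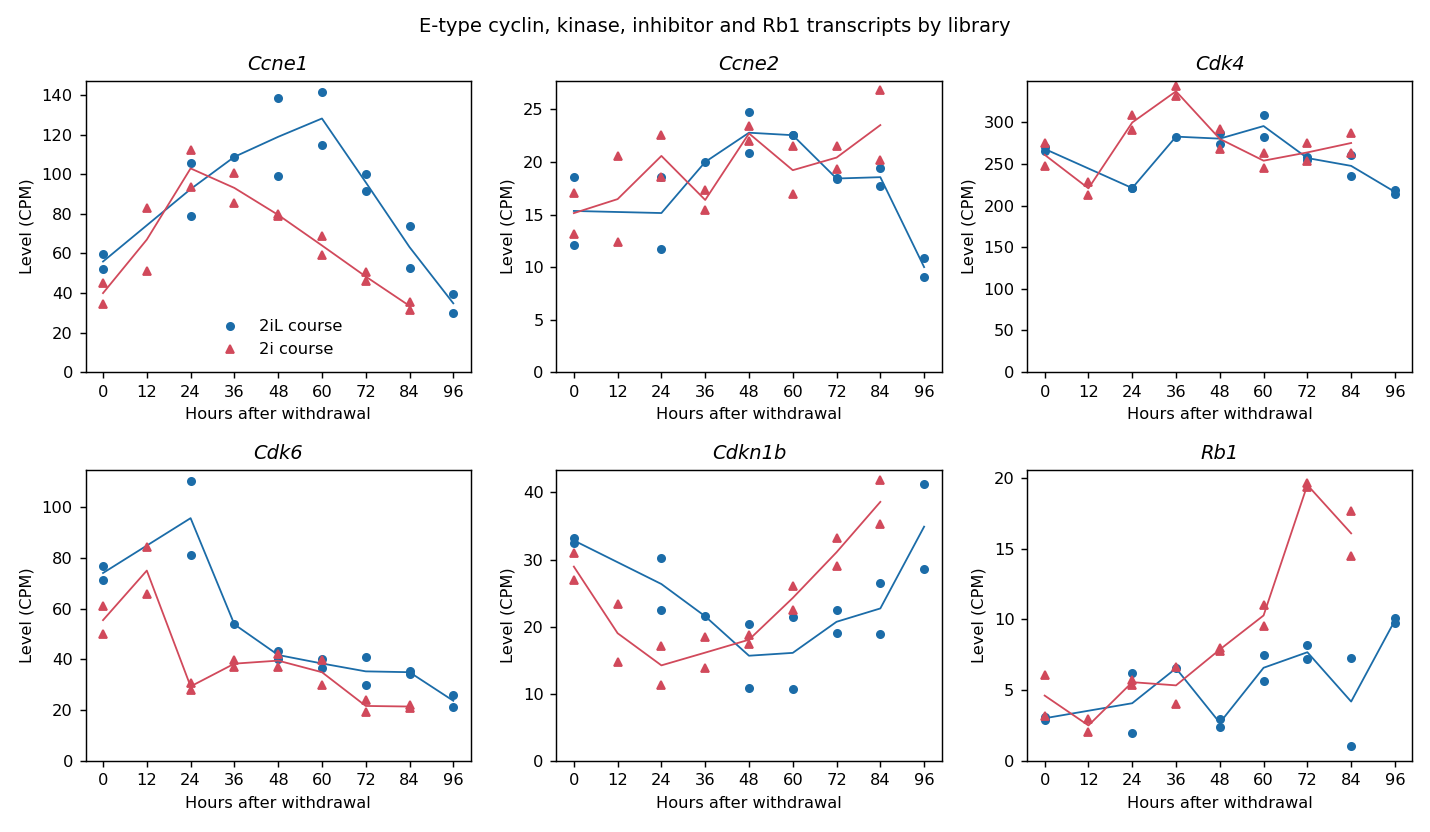
Levels of Ccne1, Ccne2, Cdk4, Cdk6, Cdkn1b and Rb1 (CPM, linear axes from 0) against hours after withdrawal; each point is a library, blue circles for the 2iL course and red triangles for the 2i course, and lines join group means. Ccne1 was highest at 142 CPM at 2iL 60 h and at 112 CPM at 2i 24 h within the courses, Cdk6 fell to 19.3 to 26 CPM late in both, and Cdk4 lay between 213 and 343 CPM throughout.

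The partner kinases of the D-type cyclins went apart. Cdk4 lay between 213 and 343 CPM in the 31 libraries and was at 271 and 265 CPM at 2iL 0 h, 214 and 218 CPM at 2iL 96 h, 247 and 275 CPM at 2i 0 h and 287 and 263 CPM at 2i 84 h. It passed at no time tested, with -0.31 ± 0.13 at 2iL 96 h (adjusted p = 0.063) and 0.08 ± 0.13 at 2i 84 h (adjusted p = 0.69). On library totals, without TMM, it was lower at 2i 12 h (-0.56, adjusted p = 0.012) and at 2iL 24 h (-0.50, adjusted p = 0.027), a scaling that moved the median of all genes at those times by -0.32 and -0.22. The joint tests called Cdk4 in the 2i course (adjusted p = 0.016) and in the 2iL course (adjusted p = 0.038). These calls were lost in 6 of 24 alternatives (adjusted p from 3.2e-04 to 0.163), among them without either library of 2i 12 h (0.0509 and 0.0586) or 2i 36 h (0.0913 and 0.104), and in 15 of 23 (0.020 to 0.196), 9 of them without a single library (0.0533 to 0.106).

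Cdk6 fell in both courses. Its 2iL libraries stood at 71.2 and 77.1 CPM at 0 h, 81.2 and 110 CPM at 24 h, 53.8 CPM at 36 h, 40.2 and 43.3 CPM at 48 h, 36.8 and 40 CPM at 60 h, 40.8 and 29.8 CPM at 72 h, 34.4 and 35.6 CPM at 84 h and 26 and 21.4 CPM at 96 h. The falls at 48 h (-0.83 ± 0.20, adjusted p = 0.0018), 72 h (-1.06 ± 0.20, adjusted p = 1.4e-04) and 96 h (-1.66 ± 0.22, 3.16-fold, adjusted p = 2.9e-07) held under all alternatives run. Its 2i libraries stood at 50 and 61 CPM at 0 h, 65.9 and 84.3 CPM at 12 h, 27.9 and 30.8 CPM at 24 h, 36.9 and 39.7 CPM at 36 h, 42 and 37.1 CPM at 48 h and 39.9 and 30 CPM at 60 h. It ended at 23.9 and 19.3 CPM at 72 h and 20.8 and 22 CPM at 84 h. The falls at 24 h (-0.91 ± 0.21, adjusted p = 0.0023), 72 h (-1.34 ± 0.23, adjusted p = 4.1e-05) and 84 h (-1.36 ± 0.23, 2.57-fold, adjusted p = 2.0e-05) passed, and the differences at 12 h (0.43 ± 0.21, adjusted p = 0.19) and 48 h (-0.49 ± 0.21, adjusted p = 0.104) did not. At 24 h both libraries of the 2iL course lay above those of 0 h, but the difference did not pass (0.36 ± 0.20, adjusted p = 0.25), nor in any of 12 alternatives (0.17 to 0.806).

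The difference between courses at 24 h was 1.27 ± 0.29 (log2) for Cdk6 (adjusted p = 0.0088), and the joint test of the difference gave adjusted p = 0.0020. The former was lost without replicate 1 of 2iL 0 h (adjusted p = 0.0548), replicate 2 of 2iL 24 h (0.0807), replicate 2 of 2i 0 h (0.065) or replicate 1 of 2i 24 h (0.0508) and on library totals (0.0559), with adjusted p from 0.0018 to 0.0807 over 16 alternatives. At 24 h, 3.08% of all tested genes differed between courses, and Ccnd2 and Cdk6 were the 2 of 9 tested genes that did.

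Of the inhibitors, Cdkn1b (p27, of the family that inhibits several cyclin-dependent kinases) was lower in the middle of each course. The 2iL libraries stood at 32.5 and 33.2 CPM at 0 h, 22.4 and 30.3 CPM at 24 h, 21.5 CPM at 36 h, 10.9 and 20.4 CPM at 48 h, 21.4 and 10.8 CPM at 60 h, 22.4 and 19 CPM at 72 h, 26.6 and 18.9 CPM at 84 h and 28.6 and 41.2 CPM at 96 h. The fall at 48 h passed (-1.09 ± 0.30, adjusted p = 0.0061), and at 96 h the libraries lay on either side of those of 0 h (0.11 ± 0.28, adjusted p = 0.79). The 2i libraries stood at 31 and 26.9 CPM at 0 h, 23.3 and 14.7 CPM at 12 h, 11.3 and 17.2 CPM at 24 h, 13.9 and 18.4 CPM at 36 h, 18.7 and 17.4 CPM at 48 h, 26 and 22.5 CPM at 60 h, 33.2 and 29 CPM at 72 h and 35.4 and 41.8 CPM at 84 h. The fall at 24 h passed (-1.0 ± 0.31, adjusted p = 0.022). At 84 h both libraries lay above those of 0 h, but the difference did not pass (0.41 ± 0.29, adjusted p = 0.29).

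The joint tests called Cdkn1b in the 2i course (adjusted p = 0.0022), also in all 24 alternatives, and in the 2iL course (adjusted p = 0.0076), where the call was lost in 1 of 23, the fit of the groups compared alone (0.0633). Its calls at single times rested on few libraries. The 2iL call at 48 h was lost without replicate 1 of 2iL 48 h (-0.68, adjusted p = 0.162) and without the 4 libraries that stood apart, of which it is one (0.0754), with adjusted p from 0.0010 to 0.162 over 12 alternatives. The 2i call at 24 h was lost without replicate 1 of 2i 0 h (adjusted p = 0.137), replicate 2 of 2i 0 h (0.0506) or replicate 1 of 2i 24 h (0.204), with adjusted p from 8.35e-04 to 0.204. The difference between courses was not called for Cdkn1b in the joint test (adjusted p = 0.055), and 11 of 35 alternatives called it (0.012 to 0.152). Cdkn2c (p18, an inhibitor specific to CDK4 and CDK6) was not tested. It had 60 counts over the 31 libraries, 0 to 6 in each and 0 in 6 libraries, at or near the limit of 3 counts, so changes of Cdkn2c could not be read at this depth.

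Rb1, the pocket protein on which the kinases act, was low and rose late. In the 2i course it stood at 3.18 and 6.04 CPM at 0 h, 2.06 and 2.94 CPM at 12 h, 5.39 and 5.73 CPM at 24 h, 4.04 and 6.62 CPM at 36 h, 7.75 and 7.98 CPM at 48 h and 9.55 and 11 CPM at 60 h. At 72 h it was at 19.6 and 19.3 CPM (2.12 ± 0.44, 4.35-fold, adjusted p = 4.1e-04) and at 84 h at 17.7 and 14.5 CPM (1.84 ± 0.44, adjusted p = 0.0017), and every library from 48 h on lay above both of 0 h. In the 2iL course it stood at 2.91 and 3.1 CPM at 0 h, 6.19 and 1.95 CPM at 24 h, 6.54 CPM at 36 h, 2.97 and 2.41 CPM at 48 h, 7.51 and 5.64 CPM at 60 h, 8.16 and 7.19 CPM at 72 h, 7.29 and 1.08 CPM at 84 h and 9.74 and 10.1 CPM at 96 h. The rises at 72 h (1.34 ± 0.50, adjusted p = 0.044) and 96 h (1.71 ± 0.49, 3.27-fold, adjusted p = 0.0059) passed. These levels rest on 2 to 32 counts a library, 432 in all.

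The call of Rb1 at 2iL 72 h was lost in 7 of 12 alternatives, among them DESeq2 (adjusted p = 0.0998) and without replicate 1 of 2iL 0 h (0.172), replicate 2 of 2iL 0 h (0.142), replicate 1 of 2iL 72 h (0.184) or replicate 2 of 2iL 72 h (0.0878), with a range from 0.020 to 0.184. That at 2i 84 h was lost without replicate 1 of 2i 0 h (1.4, adjusted p = 0.0659; range 1.6e-04 to 0.0659), and those at 2i 72 h and 2iL 96 h held under all alternatives run. Lpar6, a receptor gene within Rb1 on the other strand, and Rcbtb2, which overlaps it on that strand too, share 408 and 488 exonic bases with Rb1 and rose at the last time of each course as well. At 2i 84 h Lpar6 rose by 2.31 ± 0.29 and Rcbtb2 by 1.98 ± 0.40 (log2), and at 2iL 96 h by 3.27 ± 0.31 and 2.80 ± 0.43. They had 2157 and 942 counts to the 432 of Rb1. Whether the counting used strand is not given in the sources used here, so the value of Rb1 is uncertain, and the part of these genes in it was not tested.

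**Figure D4:**
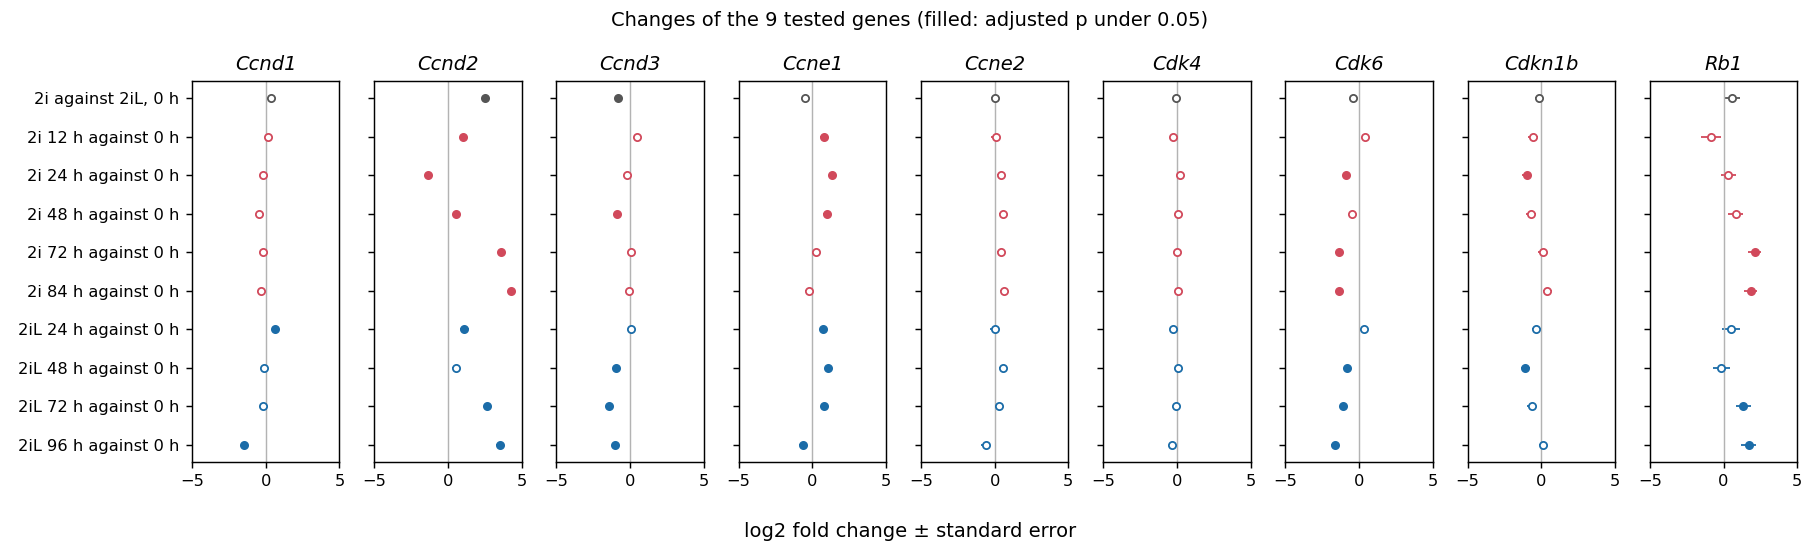
Log2 fold changes with standard errors of the 9 tested genes for 2i against 2iL at 0 h (grey), the 2i course against 2i 0 h (red) and the 2iL course against 2iL 0 h (blue); filled points have an adjusted p under 0.05. Ccnd2 reached 4.27 at 2i 84 h and 3.5 at 2iL 96 h, while Cdk4 stayed between -0.31 and 0.20.

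Counted over the 9 tested genes, the calls stood beside a share called among all genes that grew with time. In the 2i course 2 of 9 were called at 12 h (10.8% of all tested genes), 4 at 24 h (17.3%), 3 at 48 h (20.2%) and 3 at 72 h (28.2%). At 2i 84 h 2 rose and 1 fell, where 33.2% of all tested genes were called, 16.6% higher and 16.6% lower. In the 2iL course 3 were called at 24 h (11.6%), 4 at 48 h (29.1%) and 5 at 72 h (28.8%). At 2iL 96 h 2 rose and 4 fell, where 39.5% were called, 19.5% higher and 20.1% lower. The joint tests called 8 of 9 in the 2i course (52.3% of all tested genes), the exception being Ccne2, and 9 in the 2iL course (56.5%). The difference between courses over the 6 shared times was called for 5 of 9 (22.5%), namely Ccnd1, Ccnd2, Ccnd3, Ccne1 and Cdk6. The comparisons of a course share the libraries of 0 h and are not independent of each other.

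The direction of the calls was not shared. At 2i 84 h Ccnd2 and Rb1 rose and Cdk6 fell, and the median log2 fold change of the 9 genes was 0.08, against -0.00076 over all tested genes. At 2iL 96 h Ccnd2 and Rb1 rose while Ccnd1, Ccnd3, Ccne1 and Cdk6 fell, with a median of -0.59 against -0.01. The calls of 2iL 24 h were all lost without replicate 2 of 2iL 0 h or without replicate 1 of 2iL 24 h, and 1 was left without replicate 1 of 2iL 0 h. At 2i 12 h 1 gene was called without replicate 1 of 2i 0 h and 1 without replicate 2 of 2i 0 h.

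The other genes of the step from G1 to S, taken from lists chosen by function, were read in the last time of each course. Their counts stand beside the 33.2% of all tested genes called at 2i 84 h (16.6% lower) and the 39.5% called at 2iL 96 h (20.1% lower). Of 10 other kinases, cyclins and turnover factors, all tested, 1 rose and 2 fell at 2i 84 h (median -0.37) and 2 fell at 2iL 96 h (median -0.14). Taken in either direction, these shares were not above the 33.2% and 39.5% called over all tested genes. Cdk2, the kinase partner of the E-type cyclins, fell at 2iL 96 h (-1.74 ± 0.30, adjusted p = 2.4e-05), from 39.9 to 53.3 CPM at 0 h to 13.2 to 14.9 CPM. Ccnh, a cyclin of the CDK-activating kinase, also fell there (-0.86 ± 0.26). At 2i 84 h Mnat1, a subunit of that kinase, fell (-0.49 ± 0.19) and Fbxw7, part of the ubiquitin ligase that degrades cyclin E, rose (0.43 ± 0.17).

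Of 5 other inhibitors 4 were tested, and 1 rose and 2 fell at each of these times, with medians of -0.53 at 2i 84 h and -1.39 at 2iL 96 h. Cdkn1a (p21) fell by 1.92 ± 0.20 on the log2 scale at 2iL 96 h (adjusted p = 4.3e-09), from 231 to 236 CPM at 0 h to 58.5 to 64.2 CPM. Most of that difference was there by 24 h, when Cdkn1a stood at 45.6 to 68.3 CPM. Cdkn2a (p16 and Arf) fell by 2.67 ± 0.34 (adjusted p = 1.7e-07), from 199 to 201 CPM to 16.9 to 42.8 CPM. Cdkn1c (p57) rose by 3.18 ± 0.35 (adjusted p = 1.2e-08), from 3.54 to 3.75 CPM to 29.9 to 36.6 CPM. Cdkn1c stood at 2i 84 h at 44.2 to 65.4 CPM, from 15.9 to 24.6 CPM.

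Of 12 other pocket proteins, E2F and DP factors, all tested, 2 rose at 2i 84 h (median 0.24) and 2 rose and 1 fell at 2iL 96 h (median 0.21), fewer than the 33.2% and 39.5% called over all tested genes. E2f1, an activating E2F, fell by 1.81 ± 0.28 (log2) at 2iL 96 h (adjusted p = 3.9e-06), while the repressing E2f7 rose (1.65 ± 0.29, adjusted p = 3.9e-05) and so did the partner Tfdp2 (0.72 ± 0.19). E2f5 rose at 2i 84 h (1.03 ± 0.25). Of 15 E2F target genes of S phase, all tested, 10 fell at 2iL 96 h (median -0.66), where 20.1% of all tested genes fell, and 2 fell at 2i 84 h (median -0.27), a share under the 16.6% of all tested genes that fell there. Those named by size of change at 2iL 96 h were Tk1, thymidine kinase (-1.92 ± 0.39), Cdt1, which licenses replication origins (-1.32 ± 0.29), Pcna, the replication clamp (-0.99 ± 0.35), and Tyms, thymidylate synthase (-0.98 ± 0.20). Whether the 2 courses differ in these counts was not tested, and their last times are 84 h and 96 h.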

How the data were processed

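Messenger RNA was measured in 32 libraries of E14 cells, placed in 16 groups by the labels. Per the submitters' processing notes, bcl2fastq, STAR 2.6.0a and HTSeq were used with genome build mm10; the annotation release and strand setting are not given in the sources used here. The authors deposited whole-number counts of uniquely aligned reads per Ensembl gene, with summary lines of reads outside genes (23.4% to 55.4%), which were not used. A deposited table of normalised values was not used. Counts were not pooled over replicates.

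Symbols matched 30934 of 31053 genes, and positions came from GENCODE M21 on mm10. The 31 libraries entered a single fit in edgeR 4.0.16 (R 4.3.3): TMM normalisation, filterByExpr with a minimum count of 10 and total of 15, a coefficient per group, 15 residual degrees of freedom, common dispersion 0.0213, quasi-likelihood tests, and Benjamini-Hochberg adjustment over 12556 genes at 0.05. Because 2iL 36 h had 1 library, the filter asked for the minimum in 1 library. Standard errors were taken as |log2 fold change| divided by the root of F and thus rest on a spread pooled over groups. The scripts were tested on simulated data.

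The 10 genes, the other gene lists and the alternatives were chosen with earlier results of these data known. All 10 genes are described; of other lists, counts and at most 4 members with the largest change among those called at the last times are given; and for each D-type cyclin the 5 most and 3 least similar genes, of which 1 is not reported here. Alternatives were DESeq2 1.42.0, RLE size factors, library totals, no filter, the shallow library kept, a replicate block, the groups compared alone, 4 libraries that stood apart left out, and each library left out in turn.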

Additional observations from a re-analysis of the deposited data

Results flagged for a closer look

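These results are values for which a test of the difference between the courses passed. In the joint test of the difference over the 6 shared times (edgeR's quasi-likelihood test, Benjamini-Hochberg adjusted over all tested genes), Ccnd2 had adjusted p = 4.6e-08, Ccnd3 3.0e-07, Cdk6 0.0020, Ccnd1 0.0256 and Ccne1 0.0401. The call of Ccnd1 was lost in 4 of 35 alternatives (adjusted p from 6.7e-05 to 0.0729), namely without replicate 2 of 2iL 24 h (0.0623), replicate 2 of 2i 24 h (0.0644) or replicate 2 of 2i 84 h (0.0593) and on library totals (0.0729). That of Ccne1 was lost in 20 of 35, with the highest adjusted p, 0.161, without replicate 2 of 2iL 24 h.

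At 24 h the change in the 2iL course minus that in the 2i course was 2.45 (log2) for Ccnd2 and 1.27 for Cdk6. Both libraries of 2iL 24 h lay above both of 2iL 0 h for Ccnd2 and Cdk6, and both libraries of 2i 24 h lay below both of 2i 0 h. These are the values that the test used, and the share of all tested genes that separate in this way was not counted. The rise of Cdk6 at 2iL 24 h passed in no fit. That of Ccnd2 at 2iL 24 h and the difference between courses for Cdk6 were each lost in some alternatives.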

How the results depend on the processing

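No difference that was called in the fit of all groups or in an alternative had opposite signs in these fits. Differences called in neither could change sign, such as Ccnd1 at 2i 12 h (log2 -0.15 to 0.38 over 12 alternatives). The joint tests over several times give no direction. With the replicate number as a block, 124 of 126 single results stayed on their side of the threshold. Lost were Ccnd2 at 2i 48 h (0.52, adjusted p = 0.0538) and the joint difference of Ccne1 (adjusted p = 0.05). The numbers were not shown to pair the libraries: same-numbered libraries deviated with correlations of -0.0997 to 0.113. The counts below are of the 9 tested genes called. With only the groups compared in the fit, 5 were called for 2i against 2iL, 6 at 2i 48 h and 5 in the joint 2iL course. Without the 4 libraries that stood apart, 5 were called at 2i 48 h, 5 at 2i 84 h and 4 for the difference at 24 h. On library totals without TMM, 3 were called for the joint difference and 1 for the difference at 24 h. The cause was not tested. Leaving out a library in turn gave 1 to 2 called at 2i 12 h, 0 to 2 at 2iL 24 h, 3 to 4 at 2iL 72 h, 1 to 2 for the difference at 24 h and 3 to 7 for the joint difference, with 3 without 2iL 24 h replicate 2 or 2i 84 h replicate 2. The other counts stayed within 1.5 times.

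Library totals moved the median of all genes by up to -0.32 (2i 12 h) and 0.24 (2i 72 h), and the share of higher genes among those called from 50.3% to 16.9% at 2i 12 h, 48.8% to 23.7% at 2iL 24 h, 50.6% to 35.8% at 2iL 48 h, 49.9% to 69.1% at 2i 72 h, 49.99% to 65.3% at 2i 84 h and 46.9% to 36.8% for 2i against 2iL. Over all genes, 1004 were called for 2i against 2iL, 2037 with only those groups, 1663 without the libraries that stood apart and 521 to 642 with a library left out. Leaving out a library gave, where the count fell by over 1.5 times, 609 to 874 at 2i 12 h (main 1356), 1270 to 1411 at 24 h (2175), 1590 to 1982 at 48 h (2533), 2137 to 2972 at 72 h (3545) and 2618 to 3523 at 84 h (4171). In the 2iL course it gave 724 to 971 at 24 h (1452), 2290 to 3829 at 48 h (3648) and 218 to 313 for the difference at 24 h (387). With only the groups compared, 3569 were called at 2i 24 h and 779 for the difference at 24 h. Without the libraries that stood apart, 2423 were called at 2iL 24 h and 838 for the difference at 24 h. Depth limits Cdkn2c, which was not tested, and Rb1, with 2 to 32 counts a library.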

Other observations

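The signals that the media had held were read in lists of known responders, chosen by function, beside the cyclins. Over all tested genes, 33.2% were called at 2i 84 h and 39.5% at 2iL 96 h, with medians of -0.00076 and -0.01 (log2). Of 8 genes that respond to ERK, 7 were tested: 4 rose and 1 fell at 2i 84 h (median 0.90), and 1 rose and 3 fell at 2iL 96 h (median -0.03). Etv5, a transcription factor induced by ERK signalling, fell by 3.24 ± 0.19 (log2) at 2i 84 h, while Spred1, an inhibitor of the pathway, rose there (0.93 ± 0.22). Dusp6, the phosphatase of ERK, rose at 2iL 96 h (1.82 ± 0.54) and Etv4 fell (-1.30 ± 0.25). Of 6 genes that respond to beta-catenin, all tested, 1 rose and 2 fell at 2i 84 h (median 0.04) and 2 rose and 4 fell at 2iL 96 h (median -2.40). Axin2, a feedback inhibitor, fell at 2iL 96 h (-2.54 ± 0.45), as did the transcription factor Sp5 (-3.92 ± 0.40), and Nkd1 rose at 2i 84 h (3.93 ± 0.73).

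Of the 4 Myc family genes, all tested, 1 rose and 2 fell at 2i 84 h (median -0.46), and 2 fell at 2iL 96 h (median -0.78), beside the 33.2% and 39.5% of all tested genes called. Mycl rose at 2i 84 h (2.21 ± 0.36), from 4.95 to 8.34 CPM at 0 h to 31.6 to 32.2 CPM. Mycn fell at 2iL 96 h (-1.26 ± 0.29), after standing at 84.4 to 168 CPM at 48 h against 57.0 to 64.7 CPM at 0 h, and Max, the partner of these factors, fell as well (-1.63 ± 0.35). Of 5 general pluripotency markers, Pou5f1 stood at 79.0 to 87.4 CPM at 2i 0 h and 2.68 to 13.3 CPM at 2i 84 h (-3.43 ± 0.47), and Sox2 at 875 to 916 CPM and 288 to 302 CPM (-1.60 ± 0.16). Utf1 also fell at 2i 84 h (-4.39 ± 0.29), whereas Lin28a rose at 2iL 96 h (2.16 ± 0.17). Trophectoderm markers, 4 of 7 tested, had a summed level of 220 to 242 CPM at 2i 0 h and 48.3 to 66.3 CPM at 2i 84 h, of which Tfap2c was the most abundant. All of these values are from edgeR's quasi-likelihood test, with adjusted p under 0.05 where a gene is said to have risen or fallen.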
